A study of Mus musculus with 3 samples.

Results

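Replication-dependent histone genes, histone variant genes and a pair of histone mRNA factors were described in spleen T lymphocytes held with LZ-8 for 10 h. The members were every row whose symbol starts with Hist1h, Hist2h, Hist3h or Hist4h, the variant genes H2afx, H2afy, H2afz, H2afv, H3f3a, H3f3b, H1f0 and H1fx, and the factors Slbp and Npat. They came to 80 of the 44788 rows of the count table, of which 70 were replication-dependent, 8 were variants and 2 were factors. The rule uses gene symbols only.

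The samples were 3 RNA-sequencing libraries of 1 group, T lymphocytes of female BALB/c mice aged 6 to 8 weeks, isolated from spleen with magnetic beads that bind CD90.2, the Thy1 antigen of mouse T cells. The cells were kept in RPMI with 2% fetal bovine serum and given LZ-8, a protein of the fungus Ganoderma lucidum, for 10 h. All libraries were from treated cells, so each value is a level in treated cells or a difference between libraries, and the effect of LZ-8 itself could not be estimated. Whether the replicates are separate animals or cultures is not in the labels, so SDs and p-values reflect only how far these libraries differ, and that may be technical.

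Histones package DNA into nucleosomes, each made of H2A, H2B, H3 and H4, with H1 on the linker DNA. Replication-dependent histone genes lie in clusters, lack introns and are expressed mainly in S phase, when new DNA has to be packaged. Their mRNA usually ends in a short stem-loop rather than a poly(A) tail, and the stem-loop binding protein SLBP takes part in its processing, translation and decay. Most variant histone genes have ordinary polyadenylated mRNA and are expressed through the cell cycle, also in resting lymphocytes.

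The stem-loop is shown first because it separates the members by sequence. Annotated transcripts (GENCODE M21, GRCm38) were searched on the transcript strand for GG, NNN, TTT, NN, A, NNN and CC in a row, where the first NNN are C or T and pair with the last NNN, and NN holds no G. It was found in 44 of the 70 replication-dependent genes and in 1 variant, H2afx, against 0.251% of all coding genes. Where it was not found, the letters were only absent from the annotated transcript. The sites below are from members described in the next paragraphs, with the stem-loop in capitals and up to 5 bases on each side.
Hist1h1c: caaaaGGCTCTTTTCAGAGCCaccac
Hist3h2a: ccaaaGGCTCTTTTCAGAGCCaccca
Hist1h2ao: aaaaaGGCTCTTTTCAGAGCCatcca
Hist1h2ap: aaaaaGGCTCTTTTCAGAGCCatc
Hist2h4: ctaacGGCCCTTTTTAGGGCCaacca
Hist1h4d: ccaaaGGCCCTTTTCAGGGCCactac
H2afx: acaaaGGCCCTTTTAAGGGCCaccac
The most common form, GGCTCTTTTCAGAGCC, was found in 26 members of the H1, H2A, H2B and H3 classes. The H4 genes had other forms, with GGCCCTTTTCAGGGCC in 7, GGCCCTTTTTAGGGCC in 2 and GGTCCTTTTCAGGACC in 2. The site of H2afx, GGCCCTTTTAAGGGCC, was found in no other member.

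Replication-dependent histone transcripts were scarce, and variant transcripts were not. Levels are counts per 1000000 of the effective library size (CPM). The 70 replication-dependent genes together had 38.6, 23.3 and 13.0 CPM in replicates 1, 2 and 3, from 491, 353 and 210 counts. The 8 variant genes together had 831, 775 and 727 CPM, from 10582, 11749 and 11738 counts. The replication-dependent sum was therefore below the variant sum in all 3 libraries, and replicate 1 was highest for both.

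As a share of all counts, the replication-dependent genes made up 0.00371% in replicate 1, with an exact 95% binomial interval of 0.00339% to 0.00405%. In replicate 2 they made up 0.00235%, between 0.00211% and 0.00261%. In replicate 3 they made up 0.00134%, between 0.00116% and 0.00153%. These intervals do not overlap, and they cover counting error only. The variant genes made up 0.0799%, 0.0783% and 0.0748%. On the CPM scale the replication-dependent sum averaged 25.0 ± 12.9 (SD, n = 3 here and below) and the variant sum 778 ± 52.1, a 34.2-fold difference (log2 ratio -5.10 ± 0.69).

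Per kilobase of exon, the scale used to compare genes, the replication-dependent sum was 33.1 ± 18.7 and the variant sum 247 ± 11.5 CPM per kilobase. This made the variant sum 8.49-fold higher, with log2 ratios of replication-dependent to variant genes of -2.32, -2.89 and -4.05 in replicates 1, 2 and 3. The sign was the same in all 3 libraries. An exact two-sided sign-flip test of 3 values cannot give a p below 0.25, so no ratio here could pass a threshold of 0.05.

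In bulk RNA, fewer cells with a transcript and less of it per cell cannot be told apart, nor can a low level of stem-loop mRNA and its loss when libraries are made. The sources used here do not give how ribosomal RNA was removed or whether poly(A) RNA was selected.

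The library totals were 13239482, 15007652 and 15683820 counts, and 3 counts, used as the detection floor, were 0.236, 0.198 and 0.186 CPM. T cell markers were present throughout, with 12 of 12 at 10 CPM or more and a summed level of 3823 to 3967 CPM. B cell markers summed to 15.2 to 16.3 CPM, with none of 7 at 0. Macrophage markers summed to 13.0 to 16.2 CPM, with Csf1r and C1qa at 0, and neutrophil markers to 0.124 to 1.02 CPM. None of these 3 lists had a gene with a mean of 10 CPM. The libraries differed in ribosomal RNA, with 5.83%, 2.37% and 0.992% of counts in 37 such rows in replicates 1, 2 and 3.

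Among the variants, H3f3b, which encodes the H3.3 protein laid down outside replication, was the most abundant. It had 334, 307 and 274 CPM in replicates 1, 2 and 3, and made up 39.2% of the variant sum. H3f3b lies on chromosome 11 from 116021912 to 116027962 (GRCm38, gene bounds of GENCODE M21, here and below). The values did not overlap those of any other member per kilobase, where it had 103 ± 10.2 CPM per kilobase. The other H3.3 gene, H3f3a, encodes the same protein and had 33.7, 35.8 and 39.8 CPM, or 10.4 ± 0.879 CPM per kilobase.

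The ratio of H3f3b to H3f3a was 9.86-fold per kilobase (log2 3.3 ± 0.27, higher in 3 of 3 libraries). That ratio depends on rows of similar sequence. Of the rows Gm10257, Gm12657, Gm6421, H3f3a-ps2 and H3f3c, at least 50% of the distinct 50-base stretches are also in H3f3a, and together they had 121, 125 and 156 CPM. With these rows added to H3f3a, an alternative chosen after seeing the data, H3f3b was 1.80-fold higher on the CPM scale (log2 0.84 ± 0.32), against 8.37-fold without them. Whether reads of H3f3a were counted in those rows was not tested.

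The H2A variants were led by H2afx and H2afy per kilobase. H2afx encodes the H2A.X protein that is phosphorylated around DNA breaks, and it had 63.4, 71.8 and 76.5 CPM in replicates 1, 2 and 3. H2afy encodes macroH2A, a large H2A with a macro domain found in silent chromatin, and it had 323, 293 and 271 CPM. Per kilobase they had 51.0 ± 4.79 and 43.4 ± 3.85, and replicate 1 was the lowest library for H2afx and the highest for H2afy, so their values overlapped. The order of the H2A variants depends on the length used, which was 6809 bases over 8 transcripts for H2afy, the longest of 4018. H2afx has 1 transcript of 1384 bases, and H2afz has 1776 bases over 7 transcripts, the longest of 1069. H2afx lies on chromosome 9 from 44334694 to 44336077, and H2afy on chromosome 13 from 56073619 to 56136361.

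H2afz and H2afv encode closely similar forms of H2A.Z, which sits at promoters and enhancers. H2afz had 54.8, 51.8 and 52.0 CPM, or 29.8 ± 0.930 CPM per kilobase, below H2afy in each library. H2afv had 13.7, 7.25 and 7.37 CPM, or 5.78 ± 2.25 CPM per kilobase. H2afz was higher than H2afv by 5.39-fold per kilobase (log2 2.43 ± 0.48, in 3 of 3 libraries). All of the distinct 50-base stretches of the row Gm8203 are in H2afz, and that row had 171, 147 and 125 CPM, more than H2afz itself. H2afz and Gm8203 together had 226, 199 and 177 CPM, so the level of H2afz alone is uncertain.

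The linker variants were low. H1f0, the linker histone typical of cells that have left the cycle, had 8.41, 7.91 and 6.88 CPM, or 3.76 ± 0.380 CPM per kilobase. Per kilobase H1f0 was below H2afv in each library, while in CPM it was above H2afv in replicate 2, at 7.91 against 7.25. H1fx had 0, 1 and 2 counts, at or under the floor of 3 counts in every library. H1f0 alone was still above the sum of all 6 replication-dependent H1 genes in each library, 2.27-fold per kilobase (log2 1.19 ± 1.06).

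**Figure D1:**
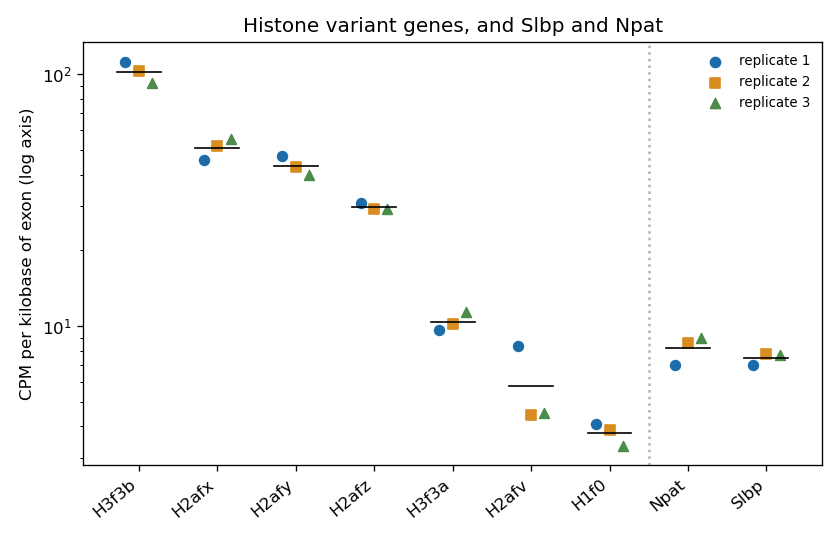
CPM per kilobase of exon on a log axis for 7 variant genes and for Npat and Slbp, with a point for each replicate and a line at the mean of 3 libraries. H3f3b stands highest at 103, H2afx and H2afy overlap, and H2afv has replicate 1 apart at 8.37 against 4.44 and 4.51. H1fx, with 3 counts in all, is not drawn.

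The factors were measured at like levels on the CPM scale. Slbp encodes the stem-loop binding protein and had 42.6, 47.0 and 46.5 CPM in replicates 1, 2 and 3. Npat encodes the coactivator that cyclin E and CDK2 act on to switch on histone genes, and it had 43.8, 53.4 and 55.9 CPM. Per kilobase they had 7.46 ± 0.395 and 8.16 ± 1.02, and replicate 1 was the lowest for both. The exon length used was 6076 bases for Slbp, with a longest transcript of 2922, and 6248 for Npat, with 6062. The level of Slbp per kilobase therefore depends on the length chosen. On the CPM scale either factor was above the sum of the 70 replication-dependent genes in each library, but per kilobase both were below it, as that sum was 51.7, 33.2 and 14.2. Exon lengths in the sum include 312 bases for Hist1h4k and 7425 for Hist1h1d, so the order per kilobase depends on the lengths used.

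Of the 70 replication-dependent genes, 61 had a count in some library, 33 had a count in every library and 9 had none. The 9 were Hist1h1a, Hist1h1t, Hist1h2aa, Hist1h2ba, Hist1h2bf, Hist1h2bh, Hist1h3d, Hist1h3g and Hist3h2bb-ps. Hist1h1t, Hist1h2aa and Hist1h2ba are known as testis histone genes, and of 5 germ cell markers 3 were at 0 and the sum was at most 0.132 CPM. A count of 0 allows a level up to the floors given above. Of all rows in the table, 48.4% had 0 counts in every library.

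A mean of 1 CPM or more was reached by 7 replication-dependent genes, or 10% of them, against 30.3% of all rows and 50.2% of protein-coding rows. They were Hist3h2a, Hist1h1c, Hist2h2be, Hist2h2bb, Hist2h4, Hist2h2aa1 and Hist2h2aa2. None reached 5 CPM. Most members rested on few reads, with 36 having between 1 and 9 counts over the 3 libraries.

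The most abundant on the CPM scale was Hist3h2a, an H2A gene outside the large clusters, on chromosome 11 from 58954685 to 58956830. It had 67, 51 and 38 counts, or 5.26, 3.36 and 2.35 CPM. It held 14.7% of the replication-dependent sum. Its annotated transcript runs 1643 bases past the stem-loop and overlaps Trim17 on the same strand, which had 2, 0 and 1 counts.

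Hist1h1c, a linker histone gene on chromosome 13 from 23738808 to 23740367, followed with 57, 33 and 13 counts, or 4.48, 2.18 and 0.805 CPM. Replicate 1 was 5.56-fold above replicate 3. The other H1 genes with a count were Hist1h1e with 12, 8 and 5, Hist1h1d with 7, 3 and 0, and Hist1h1b with 1, 2 and 0.

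The H2B genes Hist2h2be and Hist2h2bb came next. Hist2h2be had 26, 18 and 44 counts, or 2.04, 1.19 and 2.73 CPM, and replicate 3 was its highest library. Hist2h2bb had 23, 37 and 18 counts, or 1.81, 2.44 and 1.11 CPM, with replicate 2 highest. Per kilobase Hist2h2bb was the highest replication-dependent gene, at 4.69 ± 1.74, but its annotated exon of 381 bases overlaps Gm42743 on the same strand.

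Hist2h4, an H4 gene on chromosome 3 from 96261682 to 96263311, had 29, 18 and 8 counts, or 2.28, 1.19 and 0.496 CPM. It shares only 1.01% of its 50-base stretches with another gene. Hist1h4d followed in that class, with 16, 10 and 2 counts and 10.2% shared. In both genes replicate 1 was highest and replicate 3 lowest.

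Some near-identical copies had near-equal counts and others did not. Hist2h2aa1 had 20, 23 and 9 counts and Hist2h2aa2 had 20, 22 and 7, and all 50-base stretches of Hist2h2aa2 are in other genes. Hist1h2ao had 16, 7 and 3 counts and Hist1h2ap had 15, 8 and 3, with 93.5% and 93.1% shared. Hist1h4m, with 89.8% shared, had 3, 2 and 0 counts, against 11, 6 and 4 for Hist1h4n, with 85.6% shared. Hist1h2al, annotated as a processed pseudogene, had 15, 9 and 2, with 67.6% shared. Of the 70 genes, 34 shared over 50% of these stretches with another gene. The sources used here do not give how reads of such copies were counted, so single copies are uncertain and sums may count a read more than once.

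**Figure D2:**
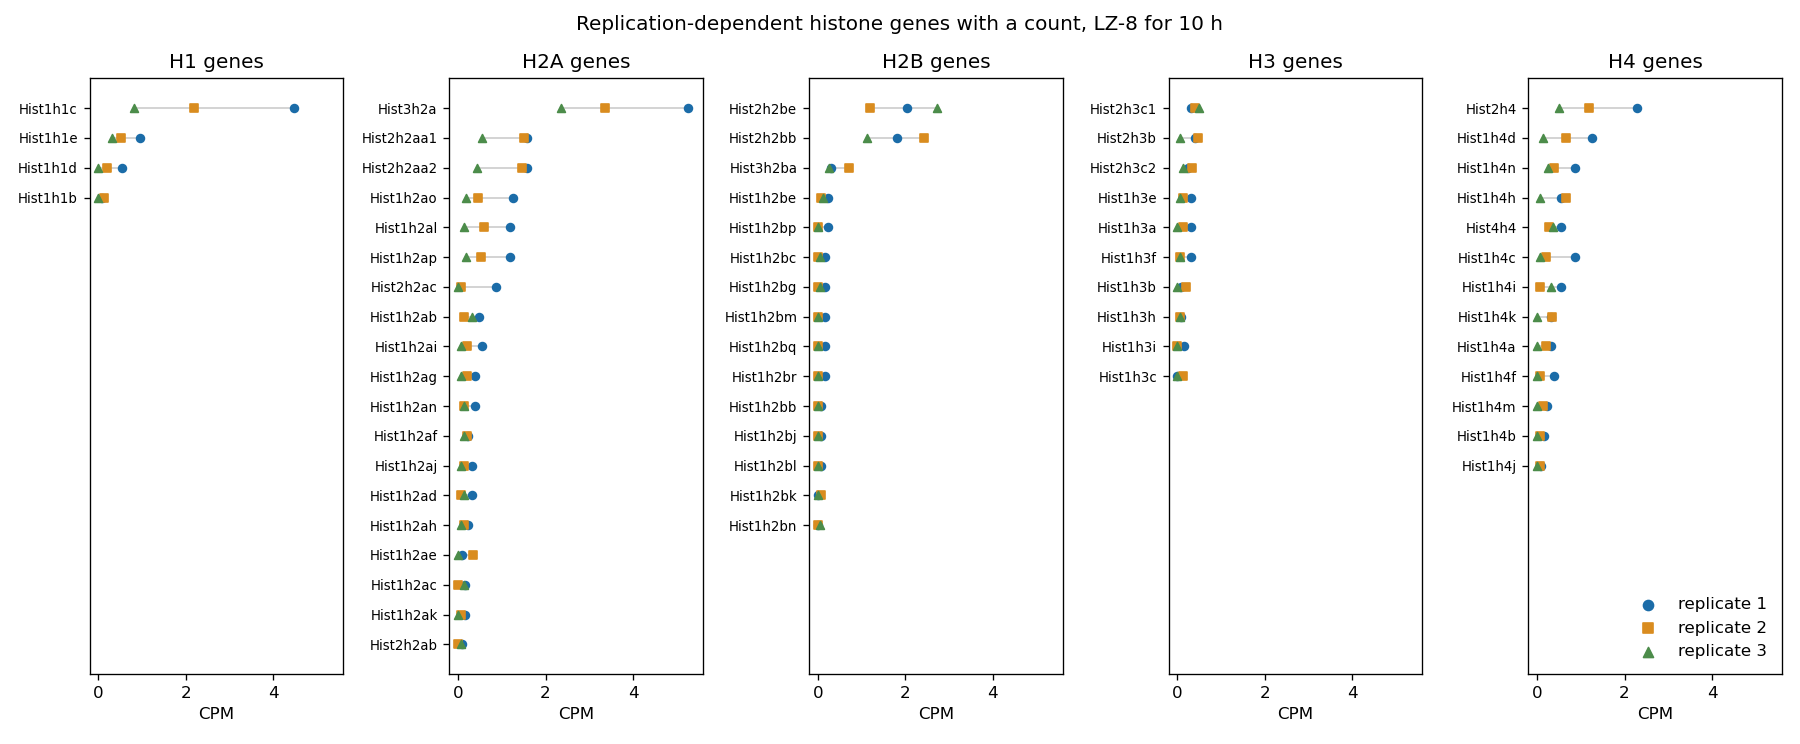
CPM of the 61 replication-dependent genes with a count, by histone class and mean level, with a point for each replicate joined by a grey line. Hist3h2a reaches 5.26 and Hist1h1c 4.48 in replicate 1, most genes lie below 1, and Hist2h2be is highest in replicate 3 at 2.73.

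By class, H2A genes had the largest share of the sum on the CPM scale. The 20 H2A genes had 16.3, 9.56 and 4.96 CPM in replicates 1, 2 and 3, or 41.1% of the mean sum. The 13 H4 genes had 8.41, 4.29 and 1.67 CPM and the 6 H1 genes 6.05, 3.03 and 1.11 CPM. The 12 H3 genes had 2.20, 1.91 and 0.867 CPM, the lowest of the classes in mean CPM, while per kilobase the H1 mean of 2.03 was below the H3 mean of 2.18. In these 4 classes replicate 1 was highest and replicate 3 lowest.

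The 19 H2B genes were different in that their sum moved little, with 5.66, 4.48 and 4.40 CPM from 72, 68 and 71 counts. Replicate 1 was 1.29-fold above replicate 3 for H2B, against 3.28-fold for H2A, 2.54-fold for H3, 5.03-fold for H4 and 5.42-fold for H1. The difference between classes was not tested. Within H2B the Hist2 genes had 49, 55 and 62 counts, while the 15 genes of the Hist1 cluster had 19, 2 and 5.

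Replication-dependent H3 genes were far below the H3.3 genes, by 60.3-fold per kilobase (log2 -5.91 ± 0.96). Replication-dependent H2A genes were below the H2A variants by 9.79-fold per kilobase (log2 -3.29 ± 1.0). Both held in 3 of 3 libraries.

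The gene clusters differed as well. The 56 genes named Hist1, all on chromosome 13, had 21.3, 9.89 and 3.96 CPM, with replicate 1 at 5.37-fold replicate 3. The 10 genes of the Hist2 cluster, on chromosome 3, had 11.2, 9.03 and 6.07 CPM, a ratio of 1.84. The Hist3 genes on chromosome 11 had 5.58, 4.09 and 2.60 CPM. Hist4h4, the gene of the Hist4 locus on chromosome 6, had 7, 4 and 6 counts.

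**Figure D3:**
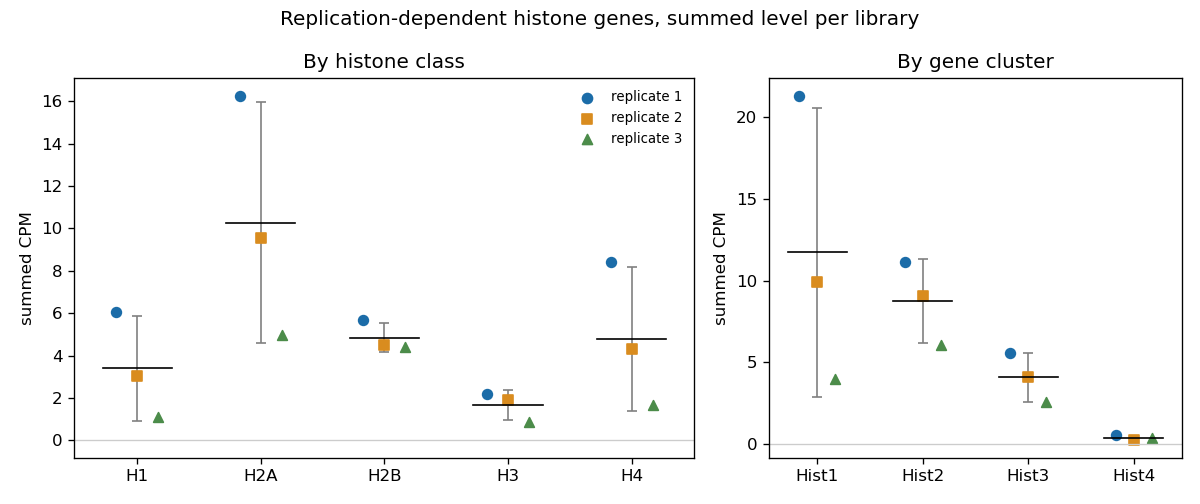
Summed CPM of the replication-dependent genes by class (left) and by gene cluster (right), with a point for each replicate, a line at the mean and bars of 1 SD over 3 libraries. H2A spans 4.96 to 16.3 CPM, whereas H2B spans 4.40 to 5.66, and the Hist1 cluster spans 3.96 to 21.3.

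Many H2A and H2B genes lie back to back on opposite strands, less than 1 kb apart, and share the sequence between their starts. There were 14 such pairs among the members, 12 of them in the Hist1 cluster. In those 12 pairs the H2A genes had 64, 34 and 16 counts and the H2B genes 15, 1 and 3. The pair of the Hist2 cluster, Hist2h2ac and Hist2h2be, had starts 239 bases apart and went the other way. Hist2h2ac had 11, 1 and 0 counts, and Hist2h2be 26, 18 and 44.

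The window before Hist2h2ac (RefSeq, GRCm38.p6, minus strand, chr3:96220831-96221130) is shown because it runs from Hist2h2ac towards the start of Hist2h2be. Capitals mark CCAAT, the octamer ATTTGCAT and TATAAA on either strand.
Hist2h2ac: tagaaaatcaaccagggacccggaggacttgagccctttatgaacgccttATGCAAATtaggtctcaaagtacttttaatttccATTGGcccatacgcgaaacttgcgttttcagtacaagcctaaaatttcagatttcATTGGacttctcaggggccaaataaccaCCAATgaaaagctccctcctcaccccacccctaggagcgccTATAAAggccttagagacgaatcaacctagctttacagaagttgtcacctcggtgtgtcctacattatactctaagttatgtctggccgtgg
Of the members, 70 had a promoter in the RefSeq table, 61 of them replication-dependent. CCAAT was in 52 of the 61 (85.2%), against 41.1% of 27025 genes with a promoter of the same length. It was in all H1, H2A, H2B and H3 promoters and in 3 of 12 of the H4 class. The octamer was in 7 of 17 H2A and 7 of 16 H2B promoters and in none of the H1, H3 or H4 class, against 1.97% of all genes. Windows of a back-to-back pair can overlap, so the same octamer or CCAAT can count for both genes. Hist1h2aa and Hist1h2ba, for example, hold the same octamer. TATAAA was in 57.4% of the replication-dependent promoters, against 15.7% of all. These matches describe the letters in the window only.

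Differences between libraries were tested per gene by chi-square, setting the 3 raw counts beside those expected from the effective library sizes, wherever each expected count was at least 5. It compares libraries, not conditions. It called 42.8% of 15392 genes at a Benjamini-Hochberg adjusted p of 0.05. Only 16 of the 70 replication-dependent genes had enough counts to be tested, and 12 of these were called. Of the 12, 9 were highest in replicate 1, as were 2758 of the 6589 called among all genes (17.9% of all genes tested). The others were Hist1h4h and Hist2h2bb, highest in replicate 2 (5.76% of all), and Hist2h2be, highest in replicate 3 (19.1% of all).

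The set of calls changed when a library was left out. Without replicate 1 there were 6 calls, without replicate 2 there were 10, and without replicate 3 there were 2. Some genes then had too few counts to be tested, such as Hist1h2ao without replicate 1 and Hist1h4h without replicate 2. The share of all genes called with a library left out is not given here or below, so such counts have no background beside them. Hist1h1c, with an adjusted p of 8.26e-09 in the chi-square test, was the only replication-dependent gene called in each of these settings. Its adjusted p in that test was 0.00937, 2.85e-09 and 0.00543 without replicates 1, 2 and 3. Hist3h2a had an adjusted p of 0.00072 in the chi-square test, but 0.233 without replicate 1 and 0.0621 without replicate 3. Hist2h2be had 0.0253, but 0.363 without replicate 2 and 0.199 without replicate 3.

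All 6 H2A genes tested were called, against 42.8% of all genes. Each was highest in replicate 1, against 17.9% of all genes tested that were called with replicate 1 highest. The 6 were Hist3h2a, Hist2h2aa1, Hist2h2aa2, Hist1h2ao, Hist1h2al and Hist1h2ap. They include the near-identical copies named above, which may share reads, so they are not 6 separate observations. Of 4 H4 genes tested, Hist2h4 and Hist1h4d were called with replicate 1 highest, and Hist1h4h with replicate 2 highest. Hist1h4n, with 11, 6 and 4 counts, was not called. The H3 class had 1 gene tested, Hist2h3c1, with 4, 6 and 8 counts and an adjusted p of 0.813 in the chi-square test.

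Of the variants, 4 of 7 tested were called, and of the factors 1 of 2, against 42.8% of all genes. These are few genes, and their counts were not tested against that share. H3f3b (adjusted p = 1.39e-18 in the chi-square test) and H2afy (4.82e-14) differed by 1.22-fold and 1.19-fold between the highest and lowest library. H2afv differed by 1.88-fold (adjusted p = 1.6e-08), with replicate 1 highest in all 3 genes. H2afx differed by 1.21-fold (adjusted p = 0.000677) with replicate 3 highest, as did Npat by 1.28-fold (8.59e-05). Without replicate 1, only H3f3b and H2afy were called, and the chi-square test gave adjusted p-values of 0.946 for H2afv, 0.280 for H2afx and 0.551 for Npat. H2afz, H3f3a, H1f0 and Slbp were not called, with adjusted p-values of 0.604, 0.0520, 0.426 and 0.282. With total counts as the scale, H3f3a and Slbp were called, at 0.0023 and 0.0247 in the same test.

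Among the genes tested, the median ratio of the highest to the lowest library was 3.56-fold for the replication-dependent genes, 1.21-fold for the variants and 1.26-fold for all genes. The median log2 ratio of replicate 1 to replicate 3 was 1.83, 0.25 and -0.02. The first median was 1.92-fold without replicate 3 and 2.27-fold at an expected count of 20 or more. Low counts widen such ratios by themselves.

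**Figure D4:**
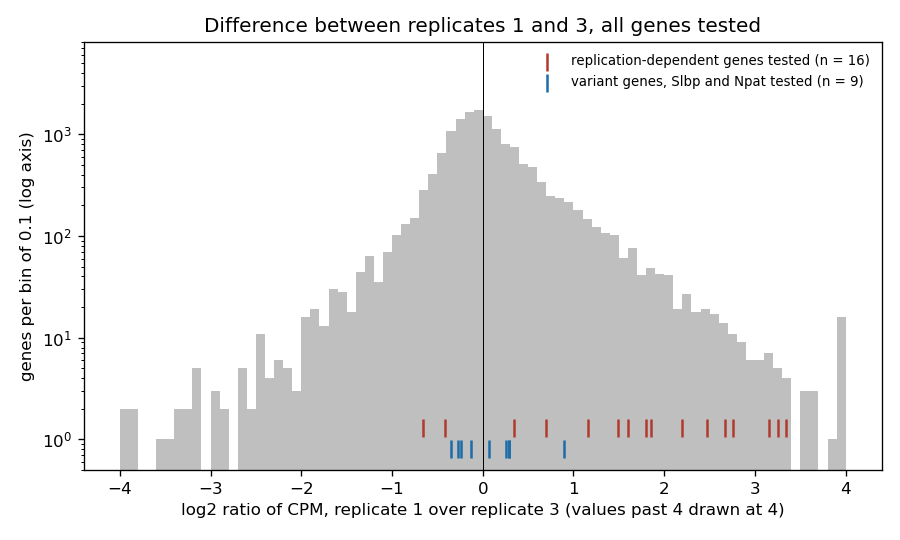
Log2 ratio of CPM in replicate 1 over replicate 3 for all 15392 genes tested (grey bars, genes per bin on a log axis), with ticks for the members tested. Of the 16 replication-dependent genes, 14 lie above 0, and the variants and factors lie within -0.35 to 0.89.

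Other RNA moved with these values. In a list of 18 RNAs without a poly(A) tail, 16 of 17 tested were called, all highest in replicate 1, against 17.9% of all genes, and the median log2 ratio of replicates 1 and 3 was 2.93. Its 3 most abundant rows were the 18S copy Rn18s-rs5 and the 7SL RNA genes Rn7s2 and Rn7s1. Rn7s2 had 303, 96.5 and 35.6 CPM and Rn7s1 had 276, 90.4 and 45.5 CPM in replicates 1, 2 and 3. The rows Rnu3b1 and Rnu3b2 had near-equal counts, 867, 368 and 125 against 865, 325 and 123. Such rows may share reads, so the 16 are not separate observations. Among coding genes with under 1 kb of exon, the members left out, 149 of 222 tested (67.1%) were highest in replicate 1, against 36.8% of all genes tested, with a median log2 ratio of 0.52. The part of ribosomal and other RNA without a tail, and of transcript length, in the histone values was not tested.

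Members were also compared by where their annotated transcript ends. The 22 genes whose transcript ends within 100 bases after the stem-loop had 137, 95 and 35 counts, with replicate 1 at 4.96-fold replicate 3 on the CPM scale. The 22 whose transcript runs further had 241, 163 and 99 counts and a ratio of 3.09. The 26 in which no stem-loop was found had 113, 95 and 76 counts and a ratio of 1.89. Much of that came from Hist2h2be and Hist2h2bb, which together had 49, 55 and 62 counts, so the low ratio rests largely on them. In these 26 genes the letters were only absent from the annotated transcript. This split was made after the counts were seen, and the difference between its parts was not tested. H2afx, with a stem-loop and 822 further bases, was lowest in replicate 1.

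Genes for the making of histone mRNA were mostly present. In the list of 15 processing genes, 13 had a mean of 10 CPM or more, led by Srrt at 400 ± 36.7 CPM, Sympk at 294 ± 15.5 CPM and Ncbp1 at 157 ± 23.8 CPM. Srrt and Ncbp1 act with the RNA cap, and Sympk is a scaffold of the cleavage complex. The U7 RNA gene Rnu7, whose RNA guides that cleavage, had 0, 1 and 0 counts. Of 14 tested, 10 were called, against 42.8% of all genes, 4 with replicate 1 highest, 2 with replicate 2 and 4 with replicate 3. Without replicate 1, 6 were called.

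Among 11 genes of histone gene transcription, 8 had a mean of 10 CPM or more, led by Gon4l at 169 ± 12.3 CPM, Yy1 at 95.5 ± 5.54 CPM and Pou2f1 at 67.8 ± 7.40 CPM. Pou2f1 encodes OCT1, which binds the octamer. Of the 11, 8 were called, against 42.8% of all genes, none with replicate 1 highest, and without replicates 1 and 3 the counts were 4 and 3. The partners of Npat were Cdk2 at 33.8 ± 3.28 CPM, Ccne1 at 12.5 ± 2.22 CPM and Ccne2 at 0.661 ± 0.0595 CPM, chosen after their values were seen.

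Histone chaperones were abundant, with 22 of 23 at 10 CPM or more. They were led by Ssrp1, a subunit of the FACT complex, at 459 ± 50.5 CPM, Supt6 at 365 ± 25.2 CPM and Ipo4 at 302 ± 8.73 CPM. Of 23 tested, 18 were called, against 42.8% of all genes. Of the 18, 15 had replicate 3 highest, against 2945 of the 6589 called among all genes. Of the 23, 10 were called without replicate 3. Genes of variant exchange were all at 10 CPM or more, led by Srcap at 665 ± 8.35 CPM and Ep400 at 408 ± 21.0 CPM, the motor subunits of complexes that place H2A.Z. Ruvbl2 followed at 232 ± 32.1 CPM. Of these 12, 10 were called, against 42.8% of all genes, 7 with replicate 1 highest and 3 with replicate 3 highest, and 5 were called without replicate 1 and 6 without replicate 3.

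The list of 29 S phase and replication genes had 19 at 10 CPM or more. Its leaders were Mcm2 at 224 ± 7.25 CPM, also counted among the chaperones, its helicase partner Mcm5 at 203 ± 4.41 CPM, and the sliding clamp gene Pcna at 156 ± 4.31 CPM. Of the 29, 10 were called, against 42.8% of all genes, 3 with replicate 1 and 7 with replicate 3 highest, and 6 were called without replicate 1 and 3 without replicate 3. The summed level was 1506, 1551 and 1598 CPM in replicates 1, 2 and 3, with replicate 1 lowest, while replicate 1 was highest for the replication-dependent histones.

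G2 and mitosis genes were lower, with 3 of 18 at 10 CPM or more, Hmgb2 at 28.6 ± 2.50 CPM, Top2a at 23.7 ± 3.23 CPM and Mki67 at 19.1 ± 1.70 CPM. Of the 18, 4 were called, against 42.8% of all genes, 2 with replicate 1 highest and 2 with replicate 3 highest, and without replicates 1 and 3 there were 2 and 0 calls.

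**Figure D5:**
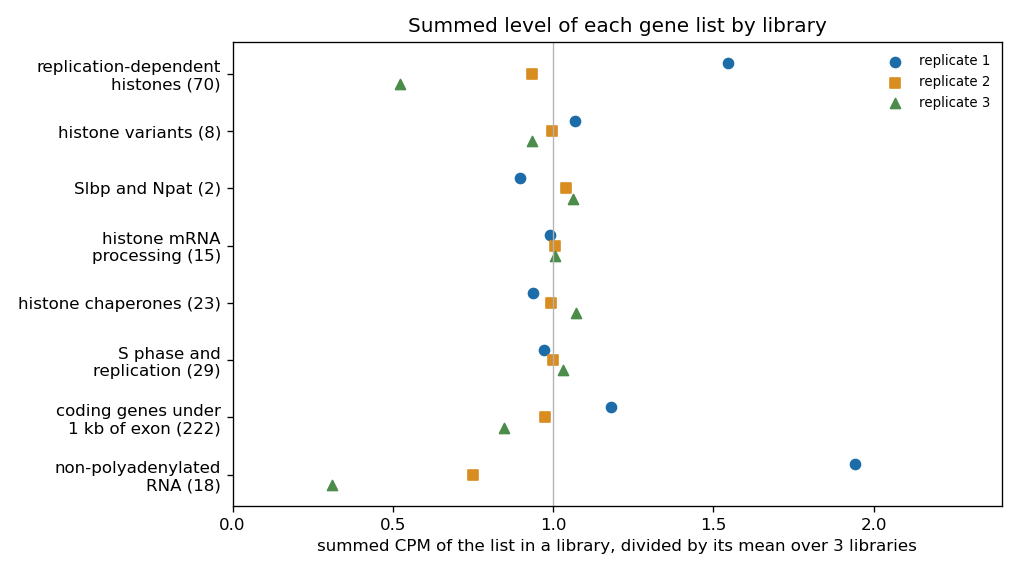
Summed CPM of each gene list in a library divided by its mean over the 3 libraries, with a point for each replicate and list sizes in brackets. Replicate 1 is highest for replication-dependent histones (38.6 CPM), short coding genes and RNA without a poly(A) tail, where the 18S row holds most of the sum, and lowest for chaperones and S phase genes.

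Other variant genes outside the rule were listed too. H2afj, an H2A variant gene, had 47.8, 30.3 and 17.96 CPM in replicates 1, 2 and 3, and H3f3c had 23.02, 27.1 and 38.8 CPM. Of the distinct 50-base stretches of H3f3c, 67.7% are also in H3f3a, so the level of H3f3c alone is uncertain. Cenpa, the H3 variant of centromeres, had 5.26, 8.24 and 9.73 CPM. All 3 were called, H2afj with replicate 1 highest and the others with replicate 3 highest. Of the other 6 in the table, H2afy2 had 0, 9 and 2 counts, H1foo had 0, 1 and 0, and H2afy3, H1fnt, Hils1 and H2afb1 had none.

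For the signalling that acts through H2A.X, 7 of 10 genes had a mean of 10 CPM or more. They were led by the kinase gene Atm at 142 ± 19.1 CPM, Trp53bp1 at 137 ± 7.23 CPM and Mdc1, whose product binds phosphorylated H2A.X, at 129 ± 14.5 CPM. Of the 10, 5 were called, against 42.8% of all genes. The 5 had replicate 3 highest, against 2945 of the 6589 called among all genes. Of these 10 genes, 3 were called without replicate 1 and 3 without replicate 3.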

How the data were processed

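RNA was sequenced on an Ion Proton platform from 3 libraries of 1 group, and the authors deposited raw counts per gene symbol, with 1 column per replicate. The build named is mm10, per the submitters' processing notes. The aligner, counter and any filter were not given in the sources used here. Effective library sizes came from TMM factors of 0.962, 1.01 and 1.03 (edgeR 4.0.16, R 4.3.3). The chi-square test (SciPy 1.17.1) ran wherever each expected count was at least 5, with Benjamini-Hochberg adjustment over all of them, and was tested on simulated data. With 1 group there was no contrast for a quasi-likelihood test. Exonic length, positions, stem-loops and shared 50-base stretches came from GENCODE M21, which uses the same build (GRCm38), where all 80 members matched, and promoters from RefSeq, where 79 matched a gene. Alternatives were DESeq2 1.42.0 size factors, total counts, exclusion of ribosomal RNA rows, other filters and limits, length scaling and leaving out each library.

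Named genes were all variants and factors, the 12 replication-dependent genes with the highest mean CPM, the leading gene of each class and the 3 leading genes of each list. A part of the rule for genes of 5 CPM or more found none. Members named for a copy, pair or count of 0 were chosen after their values were seen. The members and lists were chosen with earlier results of these data known. The listed symbols H2afb2, H2afb3, H2al2a, Rn45s and Adgre1 (a macrophage marker) were not matched.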

Additional observations from a re-analysis of the deposited data

How the results depend on the processing

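The replication-dependent sum and the sums of H1, H2A, H3 and H4 moved by less than 1 SD between libraries under every alternative that kept the CPM scale. In CPM per kilobase, a different unit, the variant sum was 247 and the H2B sum 6.90. The variant sum was 1060 CPM with near-identical rows added, an alternative chosen after seeing the data. The log2 ratios kept their sign under every alternative run. Replication-dependent genes with calls numbered 4 at an expected count of 20 or more and 7 at an adjusted p of 0.01, and 2 to 10 with a replicate left out. With no filter other than a count in any library, they numbered 13. For variants and factors the range was 2 to 6 with a replicate left out, and 7 were called with total counts as the scale. Replication-dependent genes above a mean of 1 CPM numbered 5 to 7 with a replicate left out, and 13 were above 0.5 CPM and 0 above 5 CPM. The median fold between libraries was 3.57 with DESeq2 size factors, 3.26 with total counts, 3.55 without ribosomal RNA rows, 3.04 with no filter, 2.27 at an expected count of 20 or more, and 1.92 to 3.48 with a replicate left out. The cause of these shifts was not tested, beyond fewer genes or samples where the setting leaves them. No paired analysis was possible because all samples are of 1 group. Depth limits most single genes, with 36 of 70 at 1 to 9 counts, which the test mostly left out.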
